A study of Homo sapiens and Mus musculus with 34 samples.

Results

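The genes described are 10 that encode subunits of protein phosphatase 1 (PP1), out of 31064 genes named on the human arrays of this series. They are the 3 catalytic subunits PPP1CA, PPP1CB and PPP1CC, and 7 regulatory subunits. The regulatory subunits are the inhibitor PPP1R2, the nuclear subunit PPP1R10, the eIF2 phosphatase subunits PPP1R15A and PPP1R15B, and the glycogen targeting subunits PPP1R3B, PPP1R3C and PPP1R3D. The set was selected on earlier results of the same arrays, in which PPP1R3C in SKNAS, PPP1R10 in BE2C and PPP1R15B in SHSY5Y were among the genes with the largest falls. Those 3 values are therefore given as descriptions.

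PP1 is a serine and threonine phosphatase whose catalytic subunit is nearly always bound to a regulatory subunit that decides where it acts. PPP1R10 (PNUTS) holds the phosphatase on chromatin together with WDR82 and TOX4, where it removes phosphates from RNA polymerase II and from the elongation factor SPT5, a substrate of CDK9, around the termination of transcription. PPP1R15A (GADD34), which is induced by stress, and PPP1R15B (CReP), which is constitutive, direct PP1 to the translation factor eIF2 alpha. The PPP1R3 subunits bring it to glycogen particles, where it activates glycogen synthase.

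RNA was measured on Affymetrix human transcriptome arrays in 4 established neuroblastoma cell lines, each with 3 arrays of untreated cells and 3 of cells exposed to CYC065 for 1 h, 24 arrays in all. CYC065 is an inhibitor of cyclin-dependent kinases that include CDK9, and the series was set up to ask how blocking them alters MYCN-dependent transcription. Kelly and BE2C (BE(2)C in the labels) are known as lines with MYCN amplification, and SKNAS and SHSY5Y (SH-SY-5Y) as lines without it. Kelly, SHSY5Y and BE2C cells received 1 µM. SKNAS cells received 1 µM by their labels but 5 µM by the treatment protocol, and the controls are untreated in the labels but DMSO in the design text. The design text calls the replicates of a group biological. With 2 lines in each of these classes, differences are described line by line and not by MYCN state.

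Values are log2 levels per gene, and a change is the mean of the treated arrays minus the mean of the untreated arrays of the same line. Symbols were given to the rows of the array by setting BE2C and SHSY5Y changes and average levels against the authors' deposited table, within a tolerance of 1e-07. BE2C and SHSY5Y values are for that reason descriptions with no test, whereas Kelly and SKNAS were tested. For the 10 genes the matched row differed from the table by at most 2.6e-09, and the nearest other single row by 0.0039 for PPP1R10 to 0.13 for PPP1R15B. PPP1R10 lies in a region of chromosome 6 that the array covers several times: 3 rows held equal values and 4 more differed from them by at most 0.0868 on any array. PPP1R15B matched a pair of rows, and the brighter one was used. A gene was called changed at a Benjamini-Hochberg adjusted p under 0.05 over all 31064 genes in limma. Replicate arrays of a group correlated across genes at r between 0.9943 and 0.9986, and the number of arrays limits the precision.

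The array medians over named genes ran from 5.341 to 5.668 in the 24 arrays. The 23 background control rows had group means between 4.54 and 5.08. The means were higher on treated than on untreated arrays in all 4 lines, 4.69 against 4.54 in Kelly, 4.67 against 4.58 in SKNAS, 5.08 against 4.91 in BE2C and 5.06 against 4.98 in SHSY5Y. The part of this rise in the changes of dim genes was not tested. Of 8 sympathetic neuroblastoma markers, 8 stood at a level of 7 or more in untreated Kelly, BE2C and SHSY5Y, and 5 in SKNAS, where TH, DBH and CHGA were lower. Of 6 mesenchymal markers, 4 reached 7 in SKNAS and 1 in each other line. Of 5 markers of other cells, none reached 7 except PTPRC in SKNAS, at 8.65. GAPDH, a glycolytic enzyme, changed by 0.03 ± 0.05 in Kelly and 0.06 ± 0.06 in SKNAS (moderated SE), with adjusted p = 0.694 and 0.663.

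After CYC065 most of the 7 regulatory subunits were lower, and the 3 catalytic subunits differed little. In Kelly, 6 of the 10 genes fell and none rose, in limma at adjusted p under 0.05, where 11.6% of all genes fell and 9.53% rose; at an unadjusted p under 0.05 the number higher was also 0, in both lines. Among genes with a mean level of 5 or more, 22.3% fell. The genes that fell in Kelly were PPP1R10, PPP1R15B, PPP1R3C, PPP1R3D, PPP1R15A and PPP1R2. In SKNAS, 5 of the 9 genes tested fell and none rose, where 4.91% of all genes fell, 1.46% rose, and 10.1% of genes at a mean level of 5 or more fell. These were PPP1R10, PPP1R15B, PPP1R3D, PPP1R15A and PPP1R3B. The median change over the 10 genes was -0.40 in Kelly, -0.43 in SKNAS, -0.27 in BE2C and -0.30 in SHSY5Y, and the median over all named genes was 0.07, 0.03, 0.01 and 0.02. In BE2C the treated arrays all lay below the untreated arrays for 8 of the 10 genes (12.9% of all genes), and in SHSY5Y for 7 (10.6% of all genes). This held in all 4 lines for PPP1R3C, PPP1R3D, PPP1R10, PPP1R15A and PPP1R15B, 5 of the 10, and for 4.88% of all genes. In SHSY5Y the nearest treated and untreated arrays stood only 0.0003 apart for PPP1CC and 0.0069 apart for PPP1R2. As the set was chosen partly for its falls, these shares describe it and support nothing further. The RNA came from whole cultures, so a lower value cannot tell a smaller share of cells with a gene's RNA from less of it per cell. RMA brings arrays to a common scale, so the values cannot show a loss of RNA shared by all genes.

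**Figure D1:**
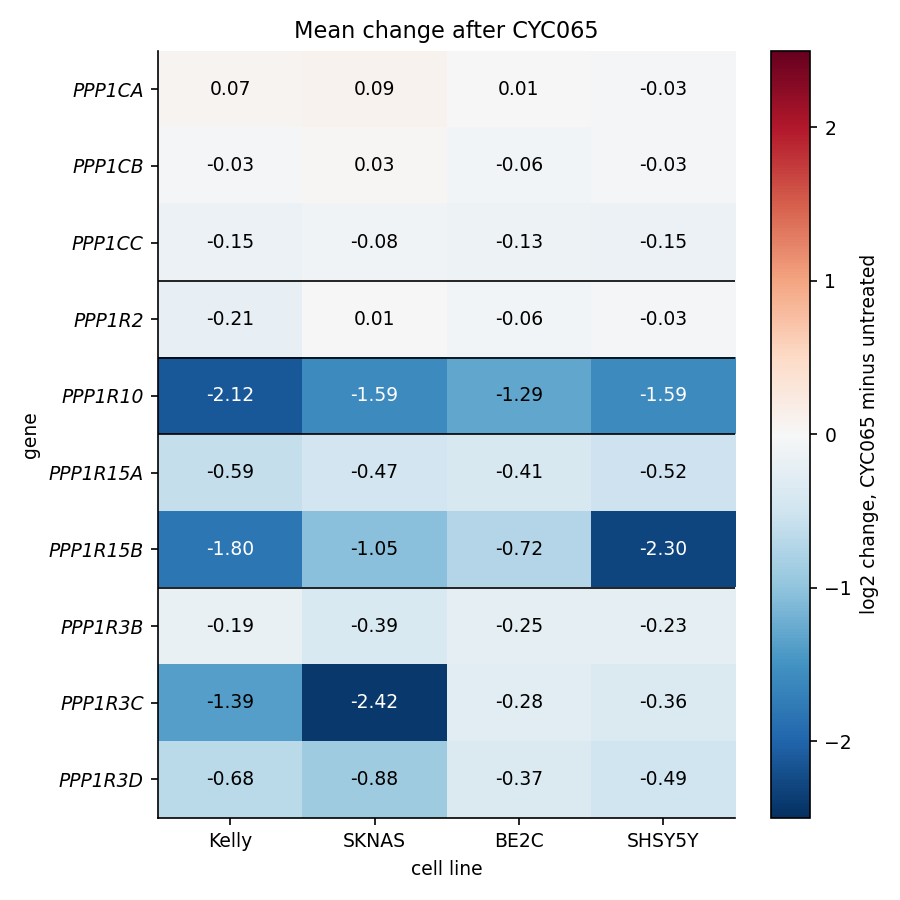
Mean log2 change after CYC065 (colour and printed number, 3 treated minus 3 untreated arrays) for the 10 PP1 genes (vertical axis) in the 4 lines (horizontal axis), with lines that separate catalytic subunits, the inhibitor, the nuclear subunit, the eIF2 subunits and the glycogen subunits. The catalytic subunits and PPP1R2 lie between -0.21 and 0.09, whereas PPP1R10 lies between -2.12 and -1.29.

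Promoter sequences are shown for PPP1R10, PPP1R15A, PPP1R15B and PPP1R3C, whose changes the results turn on, and for PPP1R2 for contrast. PPP1R2 was called lower in Kelly, with a change of -0.21, and its changes in the other lines lay between -0.06 and 0.01. Each window runs from 250 bases before to 50 after the RefSeq start site (GRCh38.p14, strand of the gene, 5′ to 3′), and capitals mark the motifs found on either strand. The motifs searched were the TATA box TATAAA, the CCAAT box as spelled in its name, the cAMP response element (CRE) TGACGTCA, the core of that element TGACGT, and the E-box CACGTG. Positions are those of a motif's first base in the printed sequence, with -1 just before the start site. The windows of 8 of the 10 genes were searched.
PPP1R10, chr6:30617194-30617493, minus strand: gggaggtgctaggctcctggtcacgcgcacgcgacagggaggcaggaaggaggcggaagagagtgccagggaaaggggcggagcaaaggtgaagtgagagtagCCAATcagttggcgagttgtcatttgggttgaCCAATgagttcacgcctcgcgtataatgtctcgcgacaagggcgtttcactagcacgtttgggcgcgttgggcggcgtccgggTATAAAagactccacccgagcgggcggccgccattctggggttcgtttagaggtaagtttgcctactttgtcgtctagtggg
PPP1R15A, chr19:48872171-48872470, plus strand: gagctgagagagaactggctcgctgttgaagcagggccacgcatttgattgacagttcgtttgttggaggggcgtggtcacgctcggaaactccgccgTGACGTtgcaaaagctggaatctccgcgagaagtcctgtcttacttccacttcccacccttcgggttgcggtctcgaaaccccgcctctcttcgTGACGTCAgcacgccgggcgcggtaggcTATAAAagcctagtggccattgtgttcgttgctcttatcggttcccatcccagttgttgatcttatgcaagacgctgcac
PPP1R15B, chr1:204411768-204412067, minus strand: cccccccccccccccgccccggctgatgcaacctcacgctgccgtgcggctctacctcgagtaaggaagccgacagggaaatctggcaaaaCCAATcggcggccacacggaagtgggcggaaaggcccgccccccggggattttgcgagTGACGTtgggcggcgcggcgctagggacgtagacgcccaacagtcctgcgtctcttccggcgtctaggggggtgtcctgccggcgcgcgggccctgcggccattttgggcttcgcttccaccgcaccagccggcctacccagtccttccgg
PPP1R3C, chr10:91633022-91633321, minus strand: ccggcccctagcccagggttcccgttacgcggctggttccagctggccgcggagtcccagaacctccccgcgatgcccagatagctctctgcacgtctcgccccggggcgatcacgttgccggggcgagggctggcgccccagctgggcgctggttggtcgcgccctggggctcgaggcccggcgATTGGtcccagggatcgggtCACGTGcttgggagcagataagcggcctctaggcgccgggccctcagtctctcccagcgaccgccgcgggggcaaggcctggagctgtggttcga
PPP1R2, chr3:195543276-195543575, minus strand: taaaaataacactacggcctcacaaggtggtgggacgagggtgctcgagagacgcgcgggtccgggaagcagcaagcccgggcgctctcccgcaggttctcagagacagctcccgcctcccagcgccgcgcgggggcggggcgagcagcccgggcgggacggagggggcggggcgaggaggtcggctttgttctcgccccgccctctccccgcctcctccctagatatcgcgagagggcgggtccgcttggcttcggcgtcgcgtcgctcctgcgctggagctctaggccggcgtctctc
The windows of PPP1R10 and PPP1R15A both hold TATAAA, at positions -32 and -30, a motif found in 11.5% of 35116 promoter windows of the same length. The PPP1R10 window also holds the CCAAT box at -147 and -115, a motif present in 34.6% of windows. The PPP1R15A window holds the whole CRE at -58, which 1.85% of windows hold and which contains the core on both strands, and another core at -152. PPP1R15B has a core at -101 (7.98% of windows) and a CCAAT box at -159. PPP1R3C has a CCAAT box on the opposite strand at -65 and an E-box at -45 (7.26% of windows). The PPP1R2 window, like those of PPP1CB, holds none of these letters. Of the other windows searched, that of PPP1CC, which changed by -0.15 to -0.08, has a CCAAT box on the opposite strand at -238. The PPP1R3D window, of a gene that fell, has only an E-box, at -209. A link between the motifs and the changes was not tested.

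PPP1R10 fell most of the 10 genes in Kelly. Its untreated Kelly arrays read 8.78, 8.79 and 8.91 and its treated arrays 6.70, 6.63 and 6.80. In SKNAS the untreated values were 9.07, 9.17 and 9.16 and the treated values 7.47, 7.58 and 7.57. The nearest treated and untreated arrays stood 1.98 apart in Kelly and 1.48 apart in SKNAS. PPP1R10 fell by 2.12 ± 0.06 in Kelly (4.33-fold, adjusted p = 4.52e-06, limma, n = 3 against 3) and fell by 1.59 ± 0.06 in SKNAS (3.01-fold, adjusted p = 5.65e-06). In BE2C the arrays went from 9.21, 9.25 and 9.30 to 7.97, 7.97 and 7.95, and in SHSY5Y from 8.70, 8.67 and 8.60 to 7.06, 7.08 and 7.05, mean changes of -1.29 and -1.59. Counted from the largest fall over 31064 genes, PPP1R10 ranked 11 in Kelly, 18 in SKNAS, 14 in BE2C and 21 in SHSY5Y. The gene was chosen partly for its fall in BE2C, so its rank there is only a description. Treated levels stayed 2.02 above the mean of the background rows in Kelly and 2.87 above it in SKNAS.

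PPP1R15B, the constitutive eIF2 phosphatase subunit, fell in both tested lines. Untreated Kelly arrays read 9.68, 9.65 and 9.77 and treated ones 7.939, 7.758 and 8.003, a change of -1.80 ± 0.07 (3.48-fold, adjusted p = 6.44e-06, limma). SKNAS arrays read 10.16, 10.22 and 10.18 untreated and 9.04, 9.22 and 9.18 treated, a change of -1.05 ± 0.07 (2.07-fold, adjusted p = 3.75e-05). No treated array reached an untreated one in either line. In BE2C the values went from 9.35, 9.40 and 9.47 to 8.71, 8.68 and 8.65, and in SHSY5Y from 9.16, 9.20 and 9.02 to 7.01, 6.70 and 6.76. The mean changes, -0.72 and -2.30, make SHSY5Y the line with the largest and BE2C the line with the smallest difference for this gene. The gene was chosen partly for its fall in SHSY5Y, so this order of lines is only a description. It ranked 2 from the largest fall in SHSY5Y, 29 in Kelly, 121 in SKNAS and 155 in BE2C. The dimmer row of the symbol had means of 3.06 to 4.22, under the background rows of every group.

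PPP1R15A, the stress-induced eIF2 subunit, fell less than PPP1R15B in every line by the mean changes. Its untreated means stood 1.56 to 2.14 above the background rows, against 4.15 to 5.61 for PPP1R15B. The part of this lower level in the smaller changes of PPP1R15A was not tested. The Kelly arrays of PPP1R15A read 6.40, 6.47 and 6.46 untreated and 5.82, 5.95 and 5.78 treated, a change of -0.59 ± 0.06 (1.51-fold, adjusted p = 0.000307, limma). SKNAS arrays read 6.76, 6.68 and 6.72 untreated and 6.33, 6.20 and 6.22 treated, a change of -0.47 ± 0.06 (adjusted p = 0.00188). The changes in BE2C and SHSY5Y were -0.41 and -0.52, with all treated arrays below the untreated ones in both lines. The treated spread was wide there, with values from 5.86 to 6.27 in BE2C and from 5.91 to 6.39 in SHSY5Y.

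**Figure D2:**
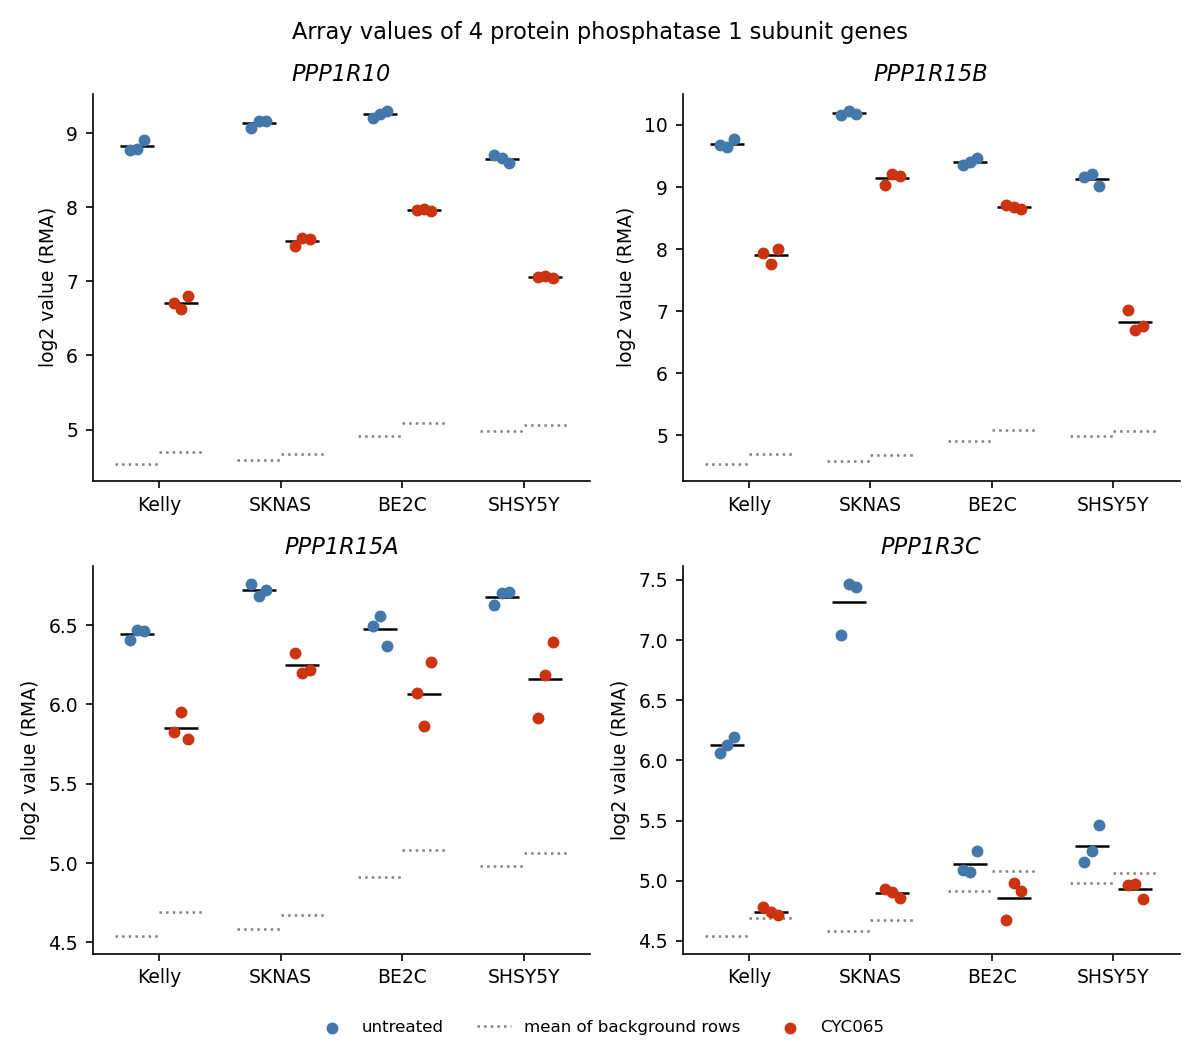
Log2 values (vertical axes) of PPP1R10, PPP1R15B, PPP1R15A and PPP1R3C on every array, by line (horizontal axes), with points for single untreated and CYC065 arrays, bars for means of 3 arrays and dotted lines for the mean of the background rows. Treated points lie below untreated points in every line, and the treated means of PPP1R3C lie within 0.23 of the background mean in all 4 lines.

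PPP1R3C (PTG), the glycogen subunit that binds glycogen and several glycogen enzymes, stood more than 1 log2 unit above the background rows only in untreated Kelly and SKNAS. Kelly arrays read 6.06, 6.13 and 6.20 untreated and 4.78, 4.74 and 4.71 treated, a change of -1.39 ± 0.05 (2.61-fold, adjusted p = 6.02e-06, limma). In SKNAS, where the gene was chosen for its fall, arrays read 7.05, 7.47 and 7.44 untreated and 4.93, 4.91 and 4.86 treated, a change of -2.42 that ranked 2 of 31064. The treated means stood 0.05 and 0.23 above the background rows in Kelly and SKNAS, so the measured falls end near the floor of the array. In BE2C and SHSY5Y the untreated means, 5.14 and 5.29, were only 0.23 and 0.31 above background, and the changes were -0.28 and -0.36. Ordered by untreated level, SKNAS (7.32) came first, then Kelly (6.13), SHSY5Y and BE2C. The values of SHSY5Y and BE2C lay within 1 SD of SHSY5Y (0.16), and levels in the earlier and later deposits were not tested against each other.

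PPP1R3D, another glycogen targeting subunit, fell in Kelly and SKNAS. Kelly arrays read 5.71, 5.74 and 5.94 untreated and 5.00, 5.14 and 5.21 treated, a change of -0.68 ± 0.08 (1.60-fold, adjusted p = 0.000841, limma). SKNAS arrays read 5.92, 6.01 and 6.03 untreated and 5.07, 5.22 and 5.03 treated, a change of -0.88 ± 0.07 (1.84-fold, adjusted p = 0.000116). Changes in BE2C and SHSY5Y were -0.37 and -0.49. Treated means were 0.42 and 0.43 above the background rows in Kelly and SKNAS, 0.06 above in BE2C, and -0.13 against them in SHSY5Y. PPP1R3B, the glycogen subunit best known from liver, was brighter, with untreated means of 6.29 in Kelly, 6.67 in SKNAS, 7.21 in BE2C and 6.94 in SHSY5Y. It fell in SKNAS by 0.39 ± 0.08 (adjusted p = 0.0201), from 6.71, 6.68 and 6.61 to 6.42, 6.28 and 6.14. That call was lost without any 1 of 5 of the 6 SKNAS arrays (untreated replicate 1, 2 or 3, treated replicate 5 or 6; adjusted p 0.0505 to 0.0848). In Kelly its arrays overlapped, with a change of -0.19 (95% interval -0.38 to 0.01, adjusted p = 0.147), and without treated replicate 5 the change was -0.28 (adjusted p = 0.017). BE2C and SHSY5Y changed by -0.25 and -0.23.

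The catalytic subunits stood at high levels and differed little after treatment. PPP1CA went from 9.58, 9.53 and 9.55 to 9.64, 9.61 and 9.61 in Kelly, a change of 0.07 (95% interval -0.03 to 0.17, adjusted p = 0.282, limma). Its treated arrays all lay above the untreated ones there, and overlapped in the other lines. Treated PPP1CC arrays all lay below the untreated ones in Kelly, BE2C and SHSY5Y (in SHSY5Y by only 0.0003), and treated PPP1CB arrays did so in BE2C. In SKNAS PPP1CA changed by 0.09 (interval -0.05 to 0.23, adjusted p = 0.511). PPP1CB changed by -0.03 (interval -0.14 to 0.08) in Kelly and 0.03 (interval -0.11 to 0.17) in SKNAS, with adjusted p = 0.668 and 0.829. PPP1CC went from 10.42, 10.42 and 10.40 to 10.30, 10.21 and 10.28 in Kelly, a change of -0.15 (interval -0.26 to -0.04) that missed the threshold at adjusted p = 0.0531. With quantile normalisation, without dim genes or with array weights that PPP1CC change passed it, at adjusted p = 0.0224, 0.0234 and 0.0411. In SKNAS PPP1CC changed by -0.08 (interval -0.24 to 0.08, adjusted p = 0.61). In BE2C and SHSY5Y the 3 catalytic subunits changed by -0.15 to 0.01. The intervals in Kelly and SKNAS reach from -0.26 to 0.23, so equal levels are not shown.

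PPP1R2 (inhibitor-2), which binds and restrains the catalytic subunit, fell by 0.21 ± 0.05 in Kelly (adjusted p = 0.0278, limma), from 8.56, 8.47 and 8.53 to 8.37, 8.25 and 8.31. The call was lost under quantile normalisation (adjusted p = 0.0987) and when untreated replicate 1 or 3, or treated replicate 5 or 6, was left out (0.0543 to 0.104). In SKNAS it changed by 0.01 (95% interval -0.14 to 0.16, adjusted p = 0.978), and in BE2C and SHSY5Y by -0.06 and -0.03.

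**Figure D3:**
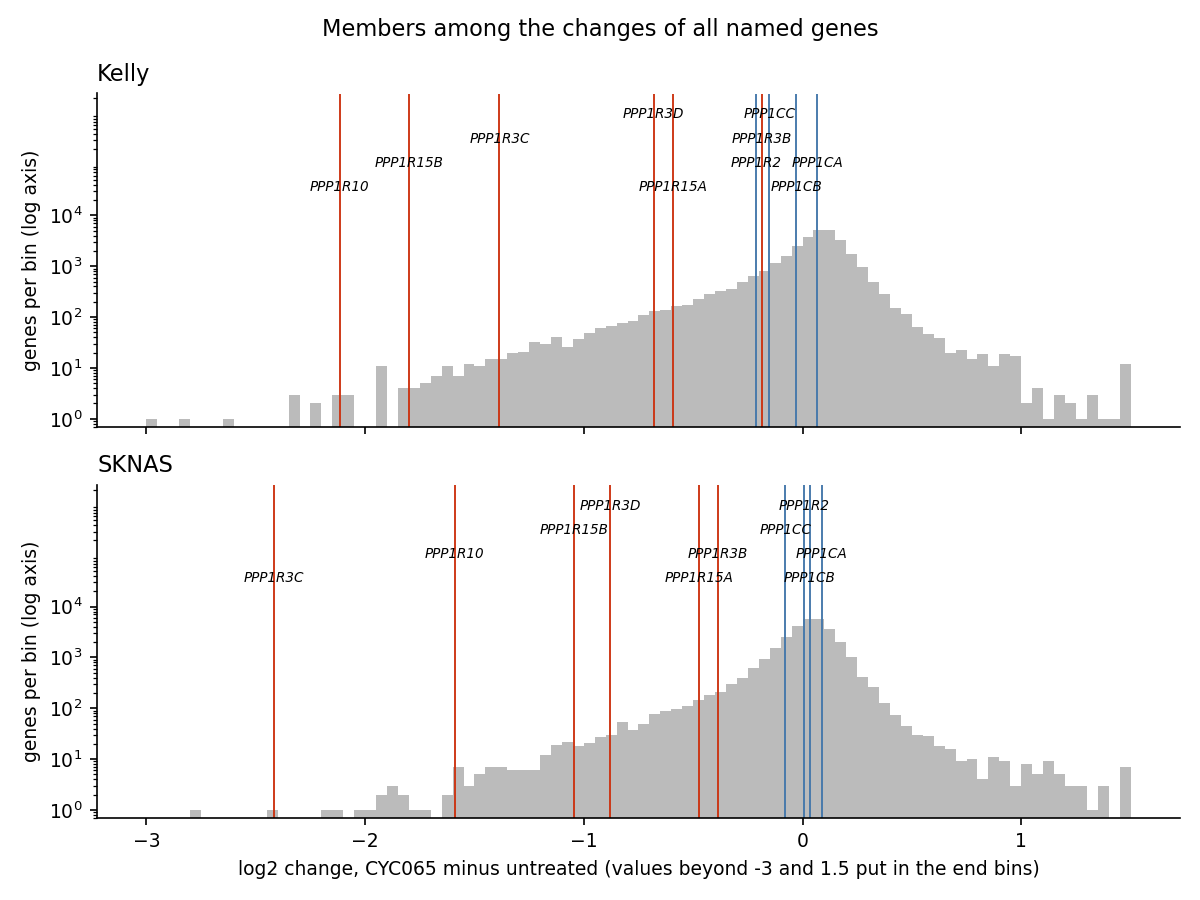
Number of named genes per bin of log2 change (vertical axis, log scale) against the change after CYC065 (horizontal axis) in Kelly and SKNAS, with vertical lines for the 10 PP1 genes, red for the regulatory subunits other than PPP1R2 and blue for PPP1R2 and the catalytic subunits. PPP1R10 sits far in the left tail in both lines, at -2.12 and -1.59, and PPP1CA, PPP1CB and PPP1CC near 0.

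Kelly and SKNAS were compared directly, since both came from the same deposit. For 2 of the 9 genes tested the change differed, against 4.37% of all genes (1358). When genes of mean level under 5 were left out, 1663 genes were called, so the share among brighter genes was higher. PPP1R10 fell more in Kelly, with a Kelly change minus SKNAS change of -0.53 ± 0.09 (adjusted p = 0.00444, limma interaction, n = 3 per group). PPP1R15B did too, with a difference of -0.75 ± 0.10 (adjusted p = 0.00101), but with the mean of both of its rows the difference was -0.30 and the call was lost (adjusted p = 0.322). For PPP1R3D the difference was 0.20 (95% interval -0.04 to 0.44), for PPP1R3B 0.20 (-0.06 to 0.46), for PPP1R15A -0.12 (-0.29 to 0.06), and for PPP1R2 -0.22 (-0.39 to -0.04, adjusted p = 0.189). For PPP1R3C no difference is read, since its treated means lay 0.05 and 0.23 above the background rows in Kelly and SKNAS. The stated dose conflict for SKNAS means that dose and line cannot be told apart in these differences.

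Before treatment the same lines differed in 8 of the 9 genes tested, against 41.3% of all genes, 5 lower and 3 higher in Kelly. That share counts dim genes too, whereas the untreated means of the 9 genes were above 5. When genes of mean level under 5 were left out, 11063 genes still differed. In the treatment fits 17376 genes in Kelly and 17269 in SKNAS reached that level, out of 31064. The share that differed before treatment was therefore higher among brighter genes than the 41.3% over all genes. The Kelly level minus the SKNAS level was -0.49 ± 0.05 for PPP1R15B (adjusted p = 6.24e-05, limma), -0.38 ± 0.05 for PPP1R3B, -0.31 ± 0.06 for PPP1CA, -0.31 ± 0.06 for PPP1R10 and -0.28 ± 0.05 for PPP1R15A. Kelly was higher for PPP1CB by 0.39 ± 0.05 (adjusted p = 0.000215), for PPP1R2 by 0.37 ± 0.05 and for PPP1CC by 0.28 ± 0.05. PPP1R3D differed by -0.19 (95% interval -0.36 to -0.03, adjusted p = 0.064). All differences tested were under 1.5-fold. PPP1R3C, given as a description, read 6.13 in Kelly and 7.32 in SKNAS.

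The genes around the PP1 subunits were taken from lists of their pathways. The 4 other glycogen targeting subunits gave 0 calls in Kelly and in SKNAS in limma, with medians of 0.01 in both. At an unadjusted p under 0.05, 1 of them was lower in Kelly and 0 in SKNAS, and 1 was called lower in Kelly with quantile normalisation, without dim genes, with array weights, with the mean of both rows and without untreated replicate 2. Of 32 other PP1 regulatory subunits measured, 6 fell and 4 rose in Kelly and 2 fell in SKNAS, where none rose (3 at an unadjusted p under 0.05), with medians of 0.05 and 0.03. Over all genes 11.6% fell in Kelly (22.3% of those of mean level 5 or more), 9.53% rose there and 4.91% fell in SKNAS, so the counts of the list lie near the background. Without any 1 array, 4 to 6 fell and 1 to 5 rose in Kelly, and 1 rose with median centring; in SKNAS 1 rose without dim genes, with the shared spread and without treated replicate 4. PPP1R8 (NIPP1), a nuclear inhibitor of PP1, fell by 0.70 ± 0.05 (adjusted p = 9.24e-05), PPP1R12A, the myosin phosphatase targeting subunit, by 0.46 ± 0.05, and TP53BP2 (ASPP2) by 0.42 ± 0.05 in Kelly. PPP1R12B, a relative of PPP1R12A, rose by 0.29 ± 0.07 in Kelly (adjusted p = 0.0204, but 0.0753 and 0.0626 without untreated replicate 1 or 2). The 2 in SKNAS were TP53BP2, which fell by 0.26 ± 0.06, and PPP1R13B, which fell by 0.25 ± 0.06, and both calls were lost, leaving 0, when any SKNAS array other than treated replicate 5 was left out and with median centring.

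Among 8 partners of PPP1R10 on chromatin and at termination, 2 fell in Kelly and 1 in SKNAS. Over all genes 11.6% fell in Kelly and 4.91% in SKNAS, and 22.3% and 10.1% of those of mean level 5 or more. The counts of this list lie near the shares of the brighter genes. PCF11, a cleavage and termination factor, fell from 7.98 to 6.21 in Kelly (-1.77 ± 0.06, adjusted p = 4.52e-06, limma) and from 6.80 to 5.77 in SKNAS (-1.04 ± 0.07, adjusted p = 5.8e-05). WDR82, which binds PPP1R10 in the same complex, fell by 0.51 ± 0.05 in Kelly, and in SKNAS it changed by -0.22 (adjusted p = 0.0783). That change passed the threshold, for 2 partners lower in SKNAS, with quantile normalisation (adjusted p = 0.0486), without dim genes (0.0345), with the shared spread (0.0286) and with array weights (0.0482). The other 6, which include TOX4, SUPT5H and POLR2A, gave no call in either line, except that 1 was higher in Kelly with quantile normalisation, and the list medians were -0.03 in Kelly and 0.08 in SKNAS.

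The list around eIF2 held 19 genes, of which 8 fell and 1 rose in Kelly, while in SKNAS 4 fell and 0 rose (0 at an unadjusted p under 0.05 too), with medians of -0.06 and -0.0022. By comparison, 11.6% of all named genes were called lower in Kelly and 4.91% in SKNAS. For genes at a mean level of 5 or more, these shares were 22.3% and 10.1%. Called higher were 9.53% of all named genes in Kelly and 1.46% in SKNAS. Whether the eIF2 list departs from these shares was not tested. The number that rose in Kelly was 3 with quantile normalisation, 3 with array weights, 4 without dim genes and 2 with the mean of both rows. In SKNAS, 2 to 4 fell without any 1 array and 6 with the shared spread. ATF4, the transcription factor whose translation rises when eIF2 alpha is phosphorylated, fell by 0.86 ± 0.06 in Kelly (adjusted p = 5.02e-05, limma) and 0.30 ± 0.06 in SKNAS (adjusted p = 0.0193, and 0.0627 to 0.0832 when untreated replicate 2 or 3, or treated replicate 6, was left out). EIF2AK3 (PERK), a kinase of eIF2 alpha, fell by 0.67 ± 0.05 in Kelly and 0.49 ± 0.07 in SKNAS. SESN2, a stress-induced regulator of growth signalling, fell by 0.71 ± 0.06 and 0.46 ± 0.07. CHAC1, an enzyme that breaks down glutathione, fell by 0.42 ± 0.05 in Kelly. DDIT3 (CHOP) fell by 0.35 ± 0.09 in SKNAS (adjusted p = 0.0486), at levels of 4.35 and 4.00 that lie under the background rows, and lost the call without any 1 of the arrays other than untreated replicate 1. In Kelly DDIT3 fell by 0.39 (adjusted p = 0.00153, limma), at levels of 4.26 and 3.87 that also lie under the background rows.

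Of 19 genes of glycogen metabolism, 5 rose and 1 fell in Kelly, while in SKNAS 1 fell and 0 rose (5 higher at an unadjusted p under 0.05), with medians of 0.10 and 0.06. Over all genes 9.53% rose and 11.6% fell in Kelly, and 1.46% rose and 4.91% fell in SKNAS. GSK3B, a kinase that inactivates glycogen synthase, fell by 0.33 ± 0.05 in Kelly (adjusted p = 0.00205, limma). PHKB and PHKG1, subunits of phosphorylase kinase, rose by 0.29 ± 0.05 and 0.17 ± 0.05, and the branching enzyme GBE1 by 0.25 ± 0.05. The number that rose in Kelly was 2 with arrays centred on their median, 2 to 3 without any 1 array, and 8 with quantile normalisation. The PHKG1 call was lost when any Kelly array other than treated replicate 6 was left out (adjusted p 0.0857 to 0.138). NHLRC1 (malin), a ubiquitin ligase of glycogen quality control, fell by 0.57 ± 0.08 in SKNAS (adjusted p = 0.00188), at levels of 4.23 and 3.66 that lie under the background rows. Without dim genes the list had 0 lower in SKNAS and 1 higher, and with quantile normalisation or the shared spread 2 were higher there. Of 10 catalytic subunits of other serine and threonine phosphatases, 1 fell in each line and 0 rose (1 higher in Kelly and 0 in SKNAS at an unadjusted p under 0.05, and 3 called higher in Kelly with quantile normalisation). This was PPM1D (WIP1), a phosphatase of the DNA damage response, from 9.46 to 7.97 in Kelly (-1.49 ± 0.07, adjusted p = 9.65e-06) and from 8.22 to 7.30 in SKNAS (-0.92 ± 0.07, adjusted p = 7.86e-05). Of all genes of mean level 5 or more, 22.3% fell in Kelly and 10.1% in SKNAS, so 1 of 10 is no more than that background. MCL1, a short-lived survival protein often used to follow CDK9 inhibition, fell by 1.17 ± 0.07 and 0.94 ± 0.06. MYCN changed from 11.74 to 8.75 in Kelly and from 6.07 to 6.01 in SKNAS.

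**Figure D4:**
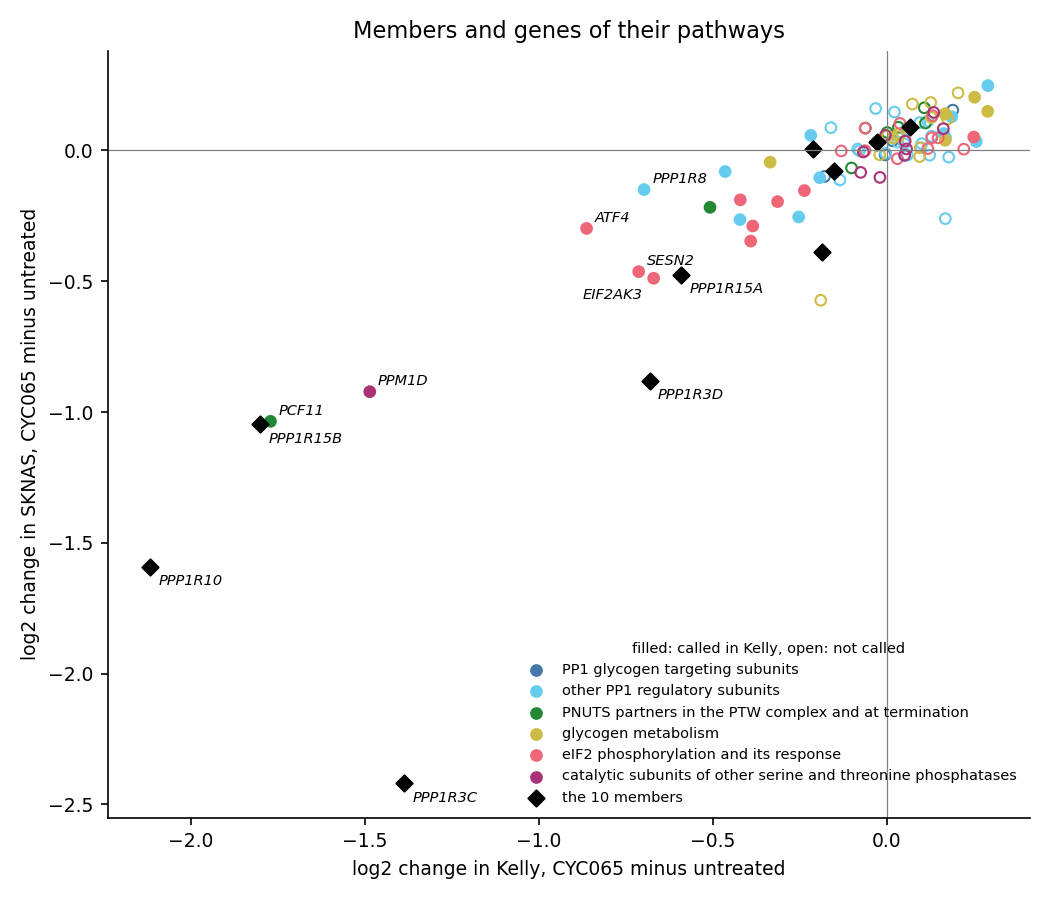
Log2 change in Kelly (horizontal axis) against SKNAS (vertical axis), CYC065 minus untreated, for the 10 PP1 genes (black diamonds) and the genes of 6 lists around them (circles, coloured by list, filled where called in Kelly). Most list genes lie near 0, and PCF11 and PPM1D lie close to PPP1R15B, with changes of -1.77 and -1.49 in Kelly.

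Genes whose pattern over the 24 arrays was most like that of a PP1 subunit were ranked by Pearson r of the value minus the untreated mean of its line. Small RNA, LOC, LINC and numbered open reading frame names were left out of the ranking. The r is a description, because arrays share their line and treatment. PPP1R10 was closest to WEE1, FBXO5 and ZNF217, with r of 0.9962, 0.9941 and 0.993, and PPP1R15B to MED17, CLK1 and CTCF, with r of 0.99, 0.9867 and 0.9857. PPP1R15A was closest to ZNF34, MAD2L1BP and MAPK7, with r of 0.9397, 0.9353 and 0.9351, and PPP1R3C to SPRY1, MYLIP and EPB41L4A-AS1, with r of 0.9683, 0.9617 and 0.9482. The changes of CLK1 were -1.31, -0.86, -0.76 and -2.08 in Kelly, SKNAS, BE2C and SHSY5Y. That is the order of lines of PPP1R15B, which follows in part from choosing CLK1 by its r with that gene. SPRY1 changed by -1.43 in Kelly and -2.02 in SKNAS, against 0.01 in BE2C and -0.21 in SHSY5Y. Among the PP1 genes, PPP1R10 followed PPP1R15A at r of 0.9147, PPP1R3D at 0.9071 and PPP1R15B at 0.8991, whereas PPP1R3C and PPP1R15B correlated at 0.4871.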

How the data were processed

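RNA from 4 human neuroblastoma lines was measured on Affymetrix transcriptome arrays, 3 untreated and 3 CYC065 arrays per line; the mouse tumor arrays were not used here. The value table holds log2 levels per row of the array, as deposited by the authors; RMA, affy and limma are named without a version per the submitters' processing notes, and the genome build is not given in the sources used here. The authors' table for BE2C and SHSY5Y, per the file headers, gives for each symbol the log2 fold change and average level, with p-values before and after adjustment. Raw intensity files were not used here.

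Of 33720 symbols in that table, 26740 matched 1 row and 4324 the mean of 2 rows, of which the brighter was kept, so 31064 (92.1%) were named. A further 103 shared a row with another symbol, 13 had been turned into dates and 2540 had no match. In a control search with the SHSY5Y values shifted along the symbols, 0 single rows and 0 pairs matched. The fits used limma 3.58.1 in R 4.3.3 (lmFit and eBayes on group means, 3 arrays against 3 per line, Kelly and SKNAS together for the interaction), with Benjamini-Hochberg adjustment over all named genes and no minimum fold. The ± of a change is its moderated SE. The fits were also run on simulated data, with independent noise and set folds in genes of mean level 5 or more, to count recovered genes. False calls and shifts shared by the genes of an array were not checked in it. The members and lists were chosen with earlier results of these data known, and no test over a list was made. All 10 members are named; of each list, up to 4 called genes per line with the largest change are named, and the 3 most similar genes of 4 members, at a mean level of at least 6. Motif searches used RefSeq promoter windows (GRCh38.p14). Alternatives were quantile normalisation, median centring, a filter on genes of mean level under 5, a spread shared over all arrays, array weights, the mean of both rows, a minimum fold of 1.5, a replicate block and leaving out each array.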

Additional observations from a re-analysis of the deposited data

Results flagged for a closer look

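The change after CYC065 differed between Kelly and SKNAS for PPP1R10 and PPP1R15B in a direct test of the difference (limma interaction, 3 arrays per group). PPP1R10 had a Kelly change minus SKNAS change of -0.52501 on the log2 scale, and its adjusted p without any 1 array stayed between 0.00423 and 0.0154. PPP1R15B had a difference of -0.75424, with adjusted p between 0.00119 and 0.00452 without any 1 array. With the mean of both of its rows, the dimmer of which lay under the background rows, the PPP1R15B difference was -0.2984 (adjusted p = 0.322). That call was then lost, and the PPP1R10 call was lost where a fold of at least 1.5 was required. The dose of SKNAS is given as 1 µM in the labels and 5 µM in the protocol, and dose and line cannot be told apart.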

How the results depend on the processing

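Of 553 values of single PP1 genes recomputed under the alternatives, 522 kept their side of the threshold, 23 lost the call and 8 gained it. The sign turned in 6, for PPP1R2 and PPP1CB in SKNAS and for PPP1CA in the difference between Kelly and SKNAS, values near 0 that were called in 0 of these cases. The number of PP1 genes lower in Kelly was 6, and 5 to 6 without any 1 array; in SKNAS it was 5, 4 to 5 without any 1 array, and 3 where a fold of at least 1.5 was required. The change differed between Kelly and SKNAS for 2 genes, for 2 without any 1 array, for 1 with the mean of both rows and for 1 with the fold required. Untreated levels differed for 8 genes, for 8 to 9 without any 1 array and for 0 with the fold required, which no difference reached. PPP1R3D differed before treatment without dim genes (adjusted p = 0.0309), with array weights (0.0303), without untreated Kelly replicate 3 (0.0102) and with the replicate block (0.04). The replicate block gave 2 and 9 genes. For Kelly and SKNAS arrays with the same number, deviations from group means correlated at -0.202 to 0.107. This cannot decide whether such arrays were handled together, since it runs over all genes at once and shared handling may touch few. Counts over all genes moved more: in Kelly 2960 rose, but 1431 with median centring, 1309 to 2933 without any 1 array and 199 at 1.5-fold, while 3616 fell, but 1082 at 1.5-fold. In SKNAS 1526 fell, but 995 to 1498 without any 1 array and 546 at 1.5-fold, and 453 rose, but 763 with the shared spread, 247 to 427 without any 1 array and 127 at 1.5-fold. The change differed for 1358 genes, but for 854 to 1261 without any 1 array, 718 with the replicate block and 377 at 1.5-fold, and untreated levels for 12816, but 5093 at 1.5-fold. The causes of these shifts were not tested, except that a required fold can only lower a count. Values near the background rows, as for PPP1R3C and PPP1R3D after treatment, set a lower limit on what the arrays resolve.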
